A study of Mus musculus with 8 samples.

Results

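The genes described here are 10 secretory and transport genes of the choroid plexus, the epithelium in the brain ventricles that makes cerebrospinal fluid: Ttr, Kl, Folr1, Aqp1, Kcnj13, Clic6, Otx2, Prlr, Enpp2 and Slc4a5. Every non-control array probe whose file name is 1 of these symbols was taken, which gave 15 of 39429 probes, for 10 of 30175 gene names. They were read in dissected striatum, a tissue that borders the lateral ventricle but does not contain this epithelium. The genes were chosen by their measured levels, with the way they varied between these samples, with Ttr and between genotypes known, so their levels, their genotype differences and their likeness to Ttr are given as descriptions.

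The study set 4 adult male mice with an intact Brd2 gene (wildtype) against 4 adult male mice with 1 copy interrupted by a gene trap (heterozygous, Brd2+/-), to profile striatal gene expression at a lowered Brd2 dose. Brd2 encodes a BET protein, which binds acetylated histones. Heterozygous parents, backcrossed repeatedly onto C57Bl/6J, gave the mice of both groups. RNA of each mouse was labelled with Cy3 (replicates 1 and 3) or Cy5 (replicates 2 and 4), and each of 4 Agilent 2-colour arrays on 1 slide held a pair of mice of the same genotype. The tissue label names the striatum and prefrontal cortex whereas the description field names heart. The striatal markers Ppp1r1b (15.61 to 17.18 on the log2 scale) and Penk (14.90 to 16.85) were bright in all 8 samples. The brighter Brd2 probe read 11.46 ± 0.65 in wildtype and 11.75 ± 0.06 in heterozygous samples (log2 intensity, SD, n = 4 each). The dimmer Brd2 probe read 7.13 ± 0.26 and 8.01 ± 0.18, 0.88 higher in heterozygous samples (SE 0.28). Its groups did not overlap, as was seen in 16.9% of the 18399 tested probes. The labels do not say where the Brd2 probes lie relative to the trap, so these probes do not check the genotypes. The samples were not alike in their dissection markers: wildtype replicate 1 read high for cortical genes, and wildtype replicate 4 read high for blood and for thalamic and septal genes and low for striatal genes. These values are given beside the results they move with. Between 18233 and 27443 of 43020 spots per sample stood well above background, with a median signal of 3.72 to 10.5 times the local background.

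Choroid plexus epithelial cells pump ions and water from blood into the ventricles and secrete carrier proteins and hormones with the fluid. Transthyretin, the product of Ttr, carries thyroid hormone and retinol-binding protein and is a major secreted product of these cells in the brain. Otx2 is a homeobox transcription factor that these cells need in order to form and to keep their identity. In RNA of a bulk tissue, more choroid plexus cells and more RNA per cell cannot be told apart.

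The probes differed in what they read, so those of the genes with several bright probes are shown first. An array probe is a DNA strand of 60 bases. The Prlr probe A_52_P458279 stayed flat across the samples while the other Prlr probe, A_66_P139387, varied with Ttr. Their mm9 positions are chr15:10255629-10255688 and chr15:10259066-10259125, both on the plus strand. The Kcnj13 probes, A_55_P2081050 at chr1:89282991-89283050 and A_55_P2066878 at chr1:89282859-89282918 (minus strand), followed each other closely. The Folr1 probes, A_55_P1977792 at chr7:109006846-109006905 and A_52_P584335 at chr7:109016972-109017031 (minus strand), varied alike with very different spans. The Enpp2 probe A_55_P2055597 lies at chr15:54670921-54670980 on the minus strand. Whole probes are printed for the flat Prlr probe, the first Kcnj13 probe and the Enpp2 probe, in which capitals mark the TAA stop codon that closes the coding sequence where the probe holds it. For the others the first 30 bases are printed.
Prlr A_52_P458279: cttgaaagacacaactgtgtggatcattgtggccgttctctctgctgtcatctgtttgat
Prlr A_66_P139387, first 30 bases: caggttaacactacagagtcatgaaggaat
Kcnj13 A_55_P2081050: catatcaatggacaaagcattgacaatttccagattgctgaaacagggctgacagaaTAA
Kcnj13 A_55_P2066878, first 30 bases: tgtatctcatgtttccttgttctcagtgct
Folr1 A_55_P1977792, first 30 bases: gtggtggggctctgacagcctctttaataa
Folr1 A_52_P584335, first 30 bases: ctgggctttttcctgtgctccgagtaggtg
Enpp2 A_55_P2055597: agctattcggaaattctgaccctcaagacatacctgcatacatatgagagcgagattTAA

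Promoter windows of 300 bases, from 250 before to 50 after a start site, were found in the RefSeq table (GRCm38.p6) for 6 of the 10 genes, 11 windows in all. Kcnj13 is shown because both of its probes tracked Ttr. Its window holds TATAAA at position -29 from the start site, in capitals below. The stretch is chr1:87394730-87394849, minus strand, and ends at the base before the start site.
Kcnj13 promoter: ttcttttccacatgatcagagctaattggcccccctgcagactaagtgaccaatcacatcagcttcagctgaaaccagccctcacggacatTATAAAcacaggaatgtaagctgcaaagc
TATAAA, on either strand, was in 3 of the 11 member windows and in 13.6% of the 32851 windows of the table. Since Otx2 is itself a member, the windows were also searched for TAATCC, the core site of Otx-type homeodomains, on either strand. It was in 1 of the 11 windows, against 7.06% of all windows, and that window was 1 of the 4 of Otx2 itself. The match, GGATTA on the printed strand, began at position -211 from that start site, within chr14:48665303-48665332 (minus strand).
Otx2 promoter, 30 bases around the match: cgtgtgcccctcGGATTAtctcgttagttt
A match of letters is a description and not a binding site.

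Ttr varied over a wider range than any other tested probe. Its single probe, A_65_P19832, lies on chromosome 18 from 20828519 to 20828577 (mm9). In wildtype replicates 1 to 4 its log2 normalized intensity was 6.64, 9.96, 15.26 and 17.36. In heterozygous replicates 1 to 4 it was 12.41, 12.18, 17.21 and 14.65. The wildtype samples held both the lowest and the highest value, so that the groups overlapped entirely. The unprocessed spot signal ran from 109 in wildtype replicate 1, where the local background was 17 and the spot was not well above background, to 165000 in wildtype replicate 4. The whole span was 10.72 log2 units, or 1680-fold, and by it Ttr ranked 1 of 18399 tested probes, with its lowest value from the spot not well above background. Over the 7 samples in which the spot was well above background it was 7.40 log2 units, or 169-fold.

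Kl encodes klotho, a membrane and shed protein that is a co-receptor for the hormone FGF23. Kl (probe A_52_P439358) read 6.55, 6.94, 8.95 and 9.91 in wildtype replicates 1 to 4 and 7.96, 7.14, 9.70 and 7.61 in heterozygous replicates 1 to 4 (log2 intensity). As with Ttr, wildtype replicates 3 and 4 and heterozygous replicate 3 were the 3 highest samples and the groups overlapped. Enpp2 encodes autotaxin, a secreted enzyme that makes lysophosphatidic acid and is also made by oligodendrocytes. Its spot carried an outlier flag in 6 of the 8 samples, so it entered no test, and its values with the flagged spots kept were 12.88, 12.70, 14.79 and 15.77 in wildtype and 13.92, 13.70, 15.69 and 14.49 in heterozygous replicates 1 to 4. The same 3 samples were again the highest.

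Folr1 encodes the folate receptor alpha, which carries folate across the choroid plexus into the fluid. The Folr1 probe A_55_P1977792 read 7.03, 7.83, 10.64 and 11.89 in wildtype and 7.24, 6.95, 10.62 and 8.34 in heterozygous replicates 1 to 4. Wildtype replicates 3 and 4 and heterozygous replicate 3 stood at least 2 log2 units above every other sample. The Folr1 probe A_52_P584335, well above background in 4 of 8 samples, read 6.64, 6.91, 7.41 and 8.19 in wildtype and 6.60, 6.66, 7.47 and 6.75 in heterozygous samples. It kept the same 3 samples on top, with a span of 1.59 log2 units against 4.93 for A_55_P1977792.

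Prlr encodes the prolactin receptor, through which choroid plexus cells bind prolactin. The Prlr probe A_66_P139387 had an outlier flag in 1 sample and entered no test. With that spot kept it read 6.32, 7.43, 8.78 and 10.12 in wildtype and 6.75, 6.72, 9.25 and 8.0 in heterozygous replicates 1 to 4. The other Prlr probe, A_52_P458279, read 7.74, 7.86, 7.68 and 8.14 in wildtype and 7.75, 7.71, 7.68 and 7.38 in heterozygous samples. So the pair disagreed: the first spanned 3.80 log2 units with the 3 highest samples of Ttr on top, and the second spanned 0.76 log2 units and put only wildtype replicate 4 on top.

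Aqp1 encodes the water channel aquaporin 1 of the apical membrane. Aqp1 (A_51_P125205) read 5.95, 6.30, 8.12 and 9.21 in wildtype and 6.14, 6.21, 9.99 and 7.71 in heterozygous replicates 1 to 4. Kcnj13 encodes the inward rectifier potassium channel Kir7.1. The Kcnj13 probe A_55_P2081050 read 6.37, 6.04, 9.23 and 10.33 in wildtype and 6.99, 6.47, 10.31 and 7.82 in heterozygous replicates 1 to 4. The Kcnj13 probe A_55_P2066878 gave 6.05, 6.13, 8.64 and 9.89, and 7.08, 6.62, 9.61 and 7.40. In all 3 probes the high samples were wildtype replicates 3 and 4 and heterozygous replicate 3, with heterozygous replicate 4 next.

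Clic6, a chloride intracellular channel protein, and Slc4a5, the sodium bicarbonate cotransporter NBCe2, varied less. Clic6 (A_52_P447284) was well above background in all 8 samples and read 9.86, 10.39, 10.94 and 11.62 in wildtype and 10.78, 10.58, 11.80 and 10.52 in heterozygous replicates 1 to 4. Slc4a5 (A_51_P403814) read 7.72, 7.67, 7.88 and 8.77 in wildtype and 6.66, 6.57, 8.01 and 6.85 in heterozygous replicates 1 to 4. This Slc4a5 probe stood apart in that wildtype replicates 1 and 2, where Ttr was lowest, read higher than 3 of the 4 heterozygous samples. A dim Slc4a5 probe, A_55_P2032548, was well above background in 1 of 8 samples and entered no test. It read 6.36, 6.11, 6.87 and 7.77 in wildtype and 6.35, 6.25, 7.58 and 6.61 in heterozygous replicates 1 to 4. Though near background, the dim probe had the 3 highest samples of Ttr on top, so the Slc4a5 probes disagree.

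Otx2 (A_55_P1978571) read 6.30, 8.22, 9.48 and 10.81 in wildtype and 8.16, 7.59, 9.22 and 8.10 in heterozygous replicates 1 to 4. This transcription factor thus gave the same 3 high samples as the secreted and transport genes. A dim Otx2 probe, A_55_P2049052, was well above background in 1 of 8 samples and read 5.99 to 6.51 in wildtype and 6.64 to 7.09 in heterozygous samples. Those values did not overlap between genotypes, as was the case for 16.9% of the 18399 tested probes, and near background they give no level.

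**Figure D1:**
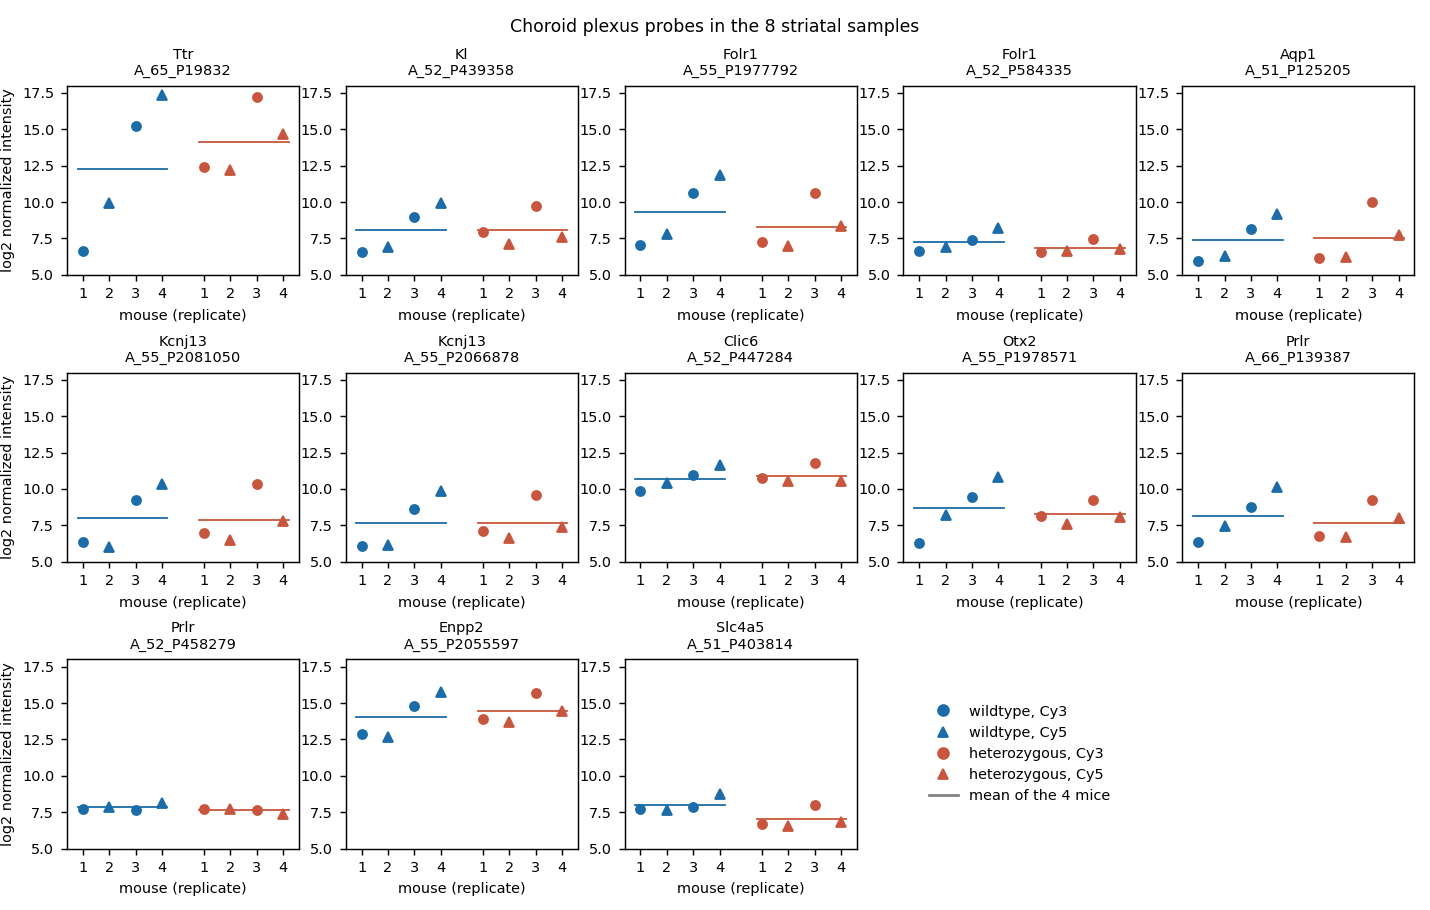
Log2 normalized intensity (y axis) of the 13 member probes that passed the filter on dim probes, for each mouse (x axis, replicates 1 to 4 of wildtype in blue and of heterozygous in red). Circles are Cy3, triangles Cy5 and lines the mean of 4 mice. In most panels wildtype 3 and 4 and heterozygous 3 lie highest, and Ttr spans 6.64 to 17.36.

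Of the 15 probes, 13 passed the filter on dim probes (well above background in 4 or more samples) and 11 of those, for 9 genes, had a value in every sample and entered the fit across all probes. No gene was left out for being dim, and Enpp2 was left out for its outlier flags. Since a dim probe can pass this filter through its high samples alone, counts over the 11 describe these probes only. The spread between mice of 1 genotype had a median SD of 1.44 log2 units over the 11 probes and 0.292 over all tested probes. A span over 3 log2 units was seen in 7 of the 11 probes and in 1.06% of all tested probes, whose median span was 0.95.

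Genotype did not separate the members. Of the 11 probes, 6 read lower and 5 higher in heterozygous samples, against 52% lower among all tested probes. Their median difference was -0.10 log2 units, and that of all probes was -0.02. None of the 11 passed limma's test at an adjusted p of 0.05, as did none of the 18399 probes (0% called, lowest adjusted p = 0.437). At an unadjusted p under 0.05 the count was 0 of the 11 and 7.96% of all probes. Without the array as a block limma called 529 probes, and with the mice of an array averaged, or with the separate-channel model, 0. None of the 11 was among any of those calls, and none had groups that did not overlap.

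Every 95% interval of a single member's genotype difference held 0. Ttr was 12.31 ± 4.89 in wildtype and 14.11 ± 2.35 in heterozygous samples (SD, n = 4 each), a difference of 1.80 with an SE of 3.11 (95% interval -5.23 to 8.84). Its sign rested on single arrays: with the first wildtype array (replicates 1 and 2) left out the difference was -2.20, and with the second (replicates 3 and 4) left out it was 5.81. Kl differed by 0.01 (SE 1.40), Aqp1 by 0.12 (SE 1.57) and Clic6 by 0.22 (SE 0.87). Otx2 differed by -0.44 (SE 1.49). The Kcnj13 probes differed by -0.10 (SE 1.67) and 0.00 (SE 1.54), and the Folr1 probes by -1.06 (SE 1.77) and -0.42 (SE 0.65). Prlr probe A_52_P458279 differed by -0.22 (SE 0.36). The tested probe nearest to a separation was Slc4a5 probe A_51_P403814, at 8.01 ± 0.52 in wildtype and 7.02 ± 0.67 in heterozygous samples. Its difference was -0.99 (SE 0.81, 95% interval -2.82 to 0.85). The dim Slc4a5 probe, near background, had means of 6.78 in wildtype and 6.70 in heterozygous samples. Probe A_51_P403814 read lower in heterozygous samples in each of the 25 alternatives that held it, from -1.75 to -0.47. Its lowest adjusted p in limma was 0.191. Many of these alternatives leave out mice or arrays and so share most of their samples. Genotype differed only from array to array and each array held a pair of mice, so the true intervals may be wider.

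**Figure D2:**
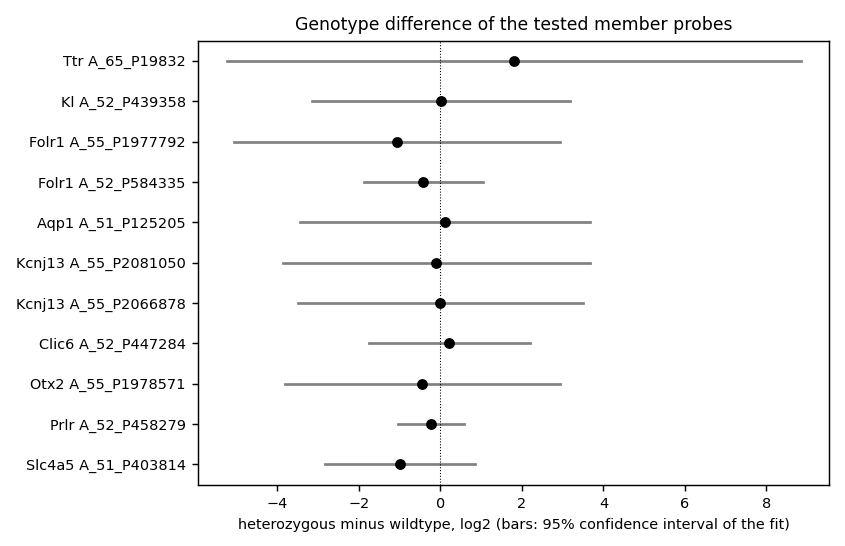
Fitted heterozygous minus wildtype difference (x axis, log2 units) of the 11 tested member probes (rows), with bars for the 95% interval of the limma fit. Every bar crosses 0, and that of Ttr reaches from -5.23 to 8.84.

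The direction of the difference turned between the Cy3 mice and the Cy5 mice. The study's design compares mice of the same dye and averages the results. Within Cy3, which sets heterozygous replicates 1 and 3 against wildtype replicates 1 and 3, 10 of the 11 probes read higher in heterozygous samples (48.7% of all probes), with a median of 0.85. Within Cy5, which sets replicates 2 and 4 against each other, 11 of 11 read lower (52.5% of all probes), with a median of -1.0. Ttr was 3.86 higher within Cy3 and differed by -0.25 within Cy5. Kl gave 1.07 and -1.05, and Otx2 0.80 and -1.67. By sign the turn held for 10 of the 11 probes and for 10.2% of all probes, the exception being Slc4a5 probe A_51_P403814 with -0.47 and -1.51. The Folr1 probes (0.09 and 0.01) and Prlr probe A_52_P458279 (0.01) were near 0 within Cy3. The dim Slc4a5 probe, outside the 11 and near background, gave 0.35 and -0.51. Each of these comparisons holds 1 dye, so a dye effect common to both genotypes cancels in it. The comparisons use different mice, so dye and mouse cannot be told apart. The turn is made of the differences between the mice of an array, which are given below for replicates 3 and 4, so it is not a separate result.

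The larger contrast lay between arrays of the same genotype. The array of wildtype replicates 3 and 4 read 8.01 log2 units above that of wildtype replicates 1 and 2 for Ttr, and the array of heterozygous replicates 3 and 4 read 3.64 above that of heterozygous replicates 1 and 2. For Folr1 probe A_55_P1977792 these differences were 3.83 and 2.38, and for Aqp1 2.54 and 2.68. In wildtype 9 of the 11 probes were at least 2-fold higher on the second array (5.7% of all probes), in heterozygous mice 6 of 11 (3.47%), and in both 6 of 11 (0.717%). Prlr probe A_52_P458279 had almost no change, 0.11 and -0.20. Slc4a5 probe A_51_P403814 was also below 2-fold in both genotypes, at 0.63 and 0.81.

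A pair of mice on 1 array shares the slide position and the hybridisation, and the members differed there too. Wildtype replicate 4 (Cy5) read above replicate 3 (Cy3) and heterozygous replicate 3 (Cy3) read above replicate 4 (Cy5) in 11 of the 11 probes, against 20.3% of all probes. At 1.5-fold or more in both pairs the count was 10 of 11, against 0.353%. The higher mouse carried Cy5 on the wildtype array and Cy3 on the heterozygous array. Ttr differed by 2.10 in the wildtype pair and by -2.57 in the heterozygous pair (replicate 4 minus 3, log2), Kcnj13 probe A_55_P2081050 by 1.11 and -2.49, and Clic6 by 0.68 and -1.28. A difference between these pair differences holds no dye effect common to both arrays. It was at least 1 log2 unit in 10 of the 11 probes (1.88% of all probes), Prlr probe A_52_P458279 being below that at 0.76. With the authors' value table, which is not normalized between the dyes of an array, the crossed signs held for 5 of the 11 probes only, whereas this difference of differences was at least 1 log2 unit in 10 or more probes with the main values and with each of 5 other processings.

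**Figure D3:**
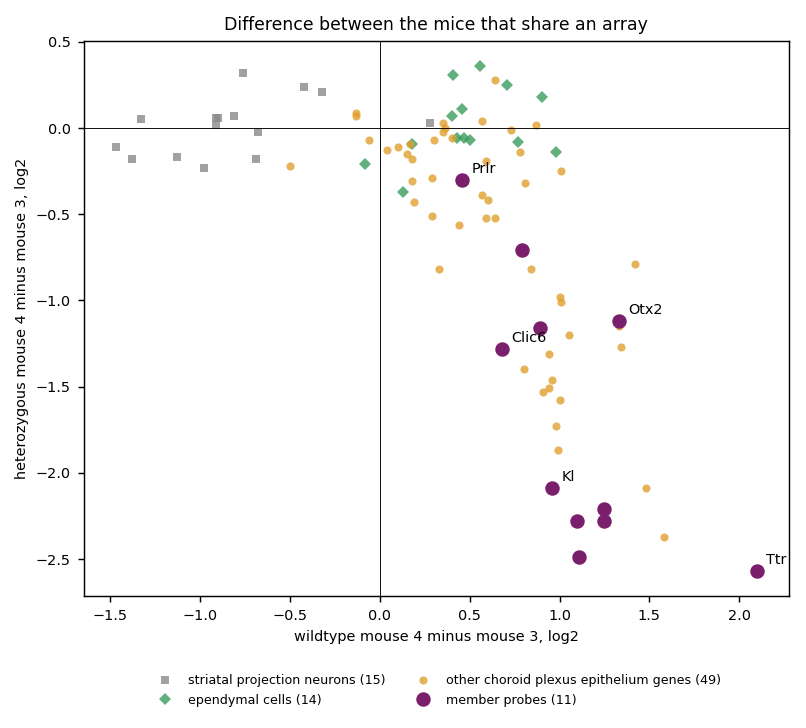
Replicate 4 minus replicate 3 on the wildtype array (x axis) and on the heterozygous array (y axis), in log2 units, for the 11 tested member probes (purple) and for genes of 3 marker lists. Member probes all lie at the lower right, with Ttr at 2.10 and -2.57, while ependymal genes lie near 0 on the y axis and most striatal genes at the left.

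Across the 8 samples the members moved with Ttr to different degrees. Pearson's r with Ttr, after removal of the mean of each dye, is given as a description over 8 points that share arrays by pairs. It was 0.94 for Kl and for Kcnj13 probe A_55_P2066878, 0.92 for Clic6 and the other Kcnj13 probe, 0.89 for Aqp1, 0.87 for Otx2, and 0.83 and 0.73 for the Folr1 probes. It was 0.35 for Slc4a5 probe A_51_P403814 and 0.07 for Prlr probe A_52_P458279. For the dim Slc4a5 probe, which was not tested, r was 0.83. With outlier spots kept it was 0.96 for Enpp2 and 0.87 for Prlr probe A_66_P139387. Over the 10 tested probes other than Ttr the median was 0.88, and over all probes it was -0.04. An r of at least 0.9 was reached by 4 of the 10 (1.66% of all probes) and an r of at least 0.8 by 7 (6.15%). Median Spearman's rho was 0.88.

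The likeness to Ttr depended on the extreme samples for some members and not for others. Without wildtype replicates 1 and 4, the samples farthest from the Ttr median, r was 0.95 for both Kcnj13 probes and 0.92 for Kl, but 0.49 for Otx2, 0.55 for Folr1 probe A_52_P584335, 0.24 for Slc4a5 and -0.78 for Prlr probe A_52_P458279. The median over the 10 probes was then 0.71, against 0.01 over all probes. With the first wildtype array left out, r for Slc4a5 went from 0.35 to 0.92, and with the second left out to -0.07. With the mean of each genotype removed, r was 0.96 or higher for Kl, both Kcnj13 probes, Folr1 probe A_55_P1977792 and Otx2. The spans were unequal, and no slope was fitted. Where Ttr spanned 10.72 log2 units (7.40 over the samples in which it was well above background), the other tested members spanned 0.76 (Prlr) to 4.93 (Folr1). Spots near background limit the spans of the dim probes.

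**Figure D4:**
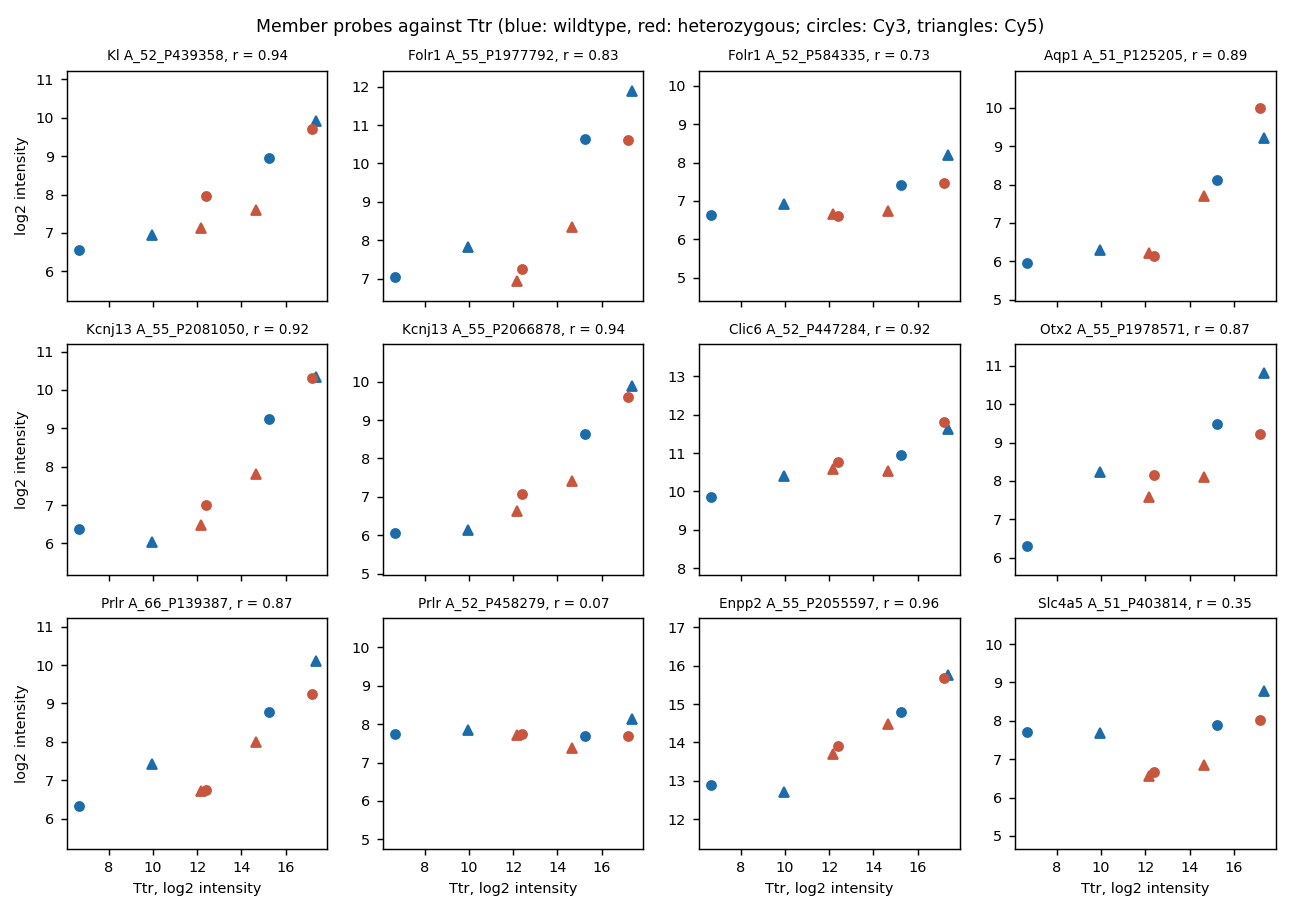
Log2 intensity of each other member probe (y axis, 6 log2 units in every panel) against that of Ttr (x axis) in the 8 samples. Most probes climb with Ttr, with r of up to 0.96 (Enpp2), while Prlr probe A_52_P458279 is flat (r = 0.07) and Slc4a5 has r = 0.35.

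Other genes known from choroid plexus epithelium, a list of 66 symbols, were read for comparison. Of 62 on the array, 49 were tested, of which 21 read higher and 28 lower in heterozygous samples, with a median of -0.09 and none called. Their median r with Ttr was 0.70, 19 of 49 had an r of at least 0.8, and 6 had an r below 0. Of the 49, 10 were at least 2-fold higher on the second array in both genotypes: Kcne2, a potassium channel subunit, Krt18, an epithelial keratin, Trpv4, a calcium-permeable channel, Rdh5, a retinol dehydrogenase, Igfbp2, which binds insulin-like growth factors, Col8a2, Steap1, F5, Wfdc2 and 1500015O10Rik (Ecrg4). Krt18 read 6.13, 6.66, 8.0 and 8.94 in wildtype and 7.47, 7.10, 9.51 and 8.0 in heterozygous replicates 1 to 4 (r = 0.97). Wfdc2 read 6.01, 6.10, 8.50 and 9.48, and 6.18, 6.06, 8.72 and 6.99 (r = 0.87). Wfdc2 had the same 3 high samples as the members, and Krt18 did with wildtype replicate 3 and heterozygous replicate 4 tied below the highest pair.

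The brightest genes of the list varied less. Clu, which astrocytes also express, spanned 0.36 log2 units (r = -0.59) and Cst3 0.74 (r = 0.07), while Trf, also an oligodendrocyte gene, had r = 0.94 over a span of 1.71. Atp1b1, a sodium pump subunit, spanned 1.06 (r = 0.28). The largest genotype differences in the list were those of Sostdc1 (1.70, SE 1.36), Folr2 (-1.32, SE 0.53), Slc19a1 (0.61, SE 0.24) and Krt18 (0.59, SE 1.15). Folr2, a folate receptor of macrophages, read 8.39, 8.30, 7.39 and 8.03 in wildtype and 6.53, 6.27, 7.27 and 6.75 in heterozygous replicates 1 to 4, without overlap. Slc19a1, the reduced folate carrier, did not overlap either, at 10.07 to 10.26 in wildtype and 10.67 to 10.81 in heterozygous samples (16.9% of all probes had no overlap). The Sostdc1 value came from heterozygous replicates 1 and 2 (10.80 and 9.54), in which Ttr was not high, and another Sostdc1 probe had r = 0.87 with Ttr, so that the probes of this gene disagree.

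Ligands, partners and relatives of the members were read from a list of 57 symbols, of which 43 were tested. Of these, 22 read higher and 21 lower, none was called, the median difference was 0.00 and the median r with Ttr was 0.32. None was 2-fold higher on the second array in both genotypes. In the klotho pathway Fgfr1, the receptor that pairs with klotho, read 10.36 to 11.94 with r = 0.87, while Fgfr3 had r = -0.78. In the prolactin pathway Jak2, the kinase bound to the receptor, spanned 0.52 log2 units (r = 0.62). In the chloride channel family Clic4 read 11.06 to 12.46 with r = 0.90, while Clic5 had r = -0.46. Among bicarbonate transporters Slc4a3 was 0.83 higher in heterozygous samples (SE 0.28). Slc4a2, the anion exchanger of choroid plexus, had r = 0.70, while Slc4a4 had r = -0.68. Slc4a10, which like Slc4a2 is also on the choroid plexus list, had r = -0.62.

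Slc4a7, a sodium bicarbonate cotransporter and relative of Slc4a5, ran the other way. Its probe A_52_P108502 read 15.43, 14.88, 9.89 and 10.07 in wildtype and 12.27, 12.62, 8.86 and 8.40 in heterozygous replicates 1 to 4. The second array minus the first was -5.18 log2 units in wildtype and -3.82 in heterozygous mice, with r = -0.91 against Ttr. The mice of each array lay close together. Aqp11, a relative of Aqp1, read 11.82 and 10.65 in heterozygous replicates 3 and 4 and 7.38 to 8.81 elsewhere.

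By the stated rule, the 10 genes outside the list of members with the highest r among 11699 candidates were Pheta1, Styx, Ogfod3, Rsph14, Pifo, Pcdh15, Ifitm7, Tm7sf3, Aak1 and Prrx1, with r from 0.971 to 0.987 over the 8 samples. Each spanned less than any tested member probe with r of at least 0.8. Pheta1, at the top, ran from 9.81 in wildtype replicate 1 to 10.50 in wildtype replicate 4, and Aak1 ran from 8.63 to 10.37. None of the 10 was in a cell type list.

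Marker lists of other cells were set beside the members, each as the median over genes of the level minus that gene's mean over the 8 samples. For the 9 tested members this was -1.54, -0.99, 0.86 and 1.82 in wildtype and -0.80, -0.96, 1.60 and -0.36 in heterozygous replicates 1 to 4. The list of other choroid plexus genes gave -0.38, -0.20, 0.15 and 0.72, and -0.27, -0.31, 0.40 and -0.11, with the same samples high and low. Ependymal cells, which line the ventricle wall, gave -0.91, 0.44, 0.39 and 0.86, and -0.16, -0.27, -0.34 and -0.30. The ependymal list was thus low where Ttr was lowest and high in wildtype replicate 4, but not high in heterozygous replicate 3. Its median r with Ttr was 0.50, and r was below 0 for 1 of its tested genes. Of its 14 tested genes 13 read lower in heterozygous samples (52% of all probes), with a median of -0.45 that was 0.01 without the second wildtype array and -0.95 without wildtype replicate 1, and none was 2-fold higher on the second array in both genotypes. The median of the 14 tested genes of the meninges stayed within 0.20 of its mean in every sample, but single genes varied more. Dcn, a matrix proteoglycan of fibroblasts, read 8.55 to 10.26 (r = 0.90), and Igf2, a growth factor, read 7.17 to 9.09 (r = 0.80).

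Some genes of the thalamic and septal list moved with the members' contrast between arrays. Of the list's 9 tested genes 3 were at least 2-fold higher on the second array in both genotypes, and its median r with Ttr was 0.59. Trpc4 went the other way, at -0.88 in wildtype and -1.04 in heterozygous mice (r = -0.75). Zic4 gave 1.36 and -0.19. The log2 summed level of the list, in which the brightest genes weigh most, was 12.01, 12.45, 13.46 and 15.31 in wildtype replicates 1 to 4. In heterozygous replicates 1 to 4 it was 11.91, 11.98, 13.13 and 14.93. Prkcd, a protein kinase C gene bright in thalamus, read 9.16, 10.51, 12.18 and 14.20 in wildtype and 8.86, 9.05, 12.17 and 14.35 in heterozygous samples. Zic1, a zinc finger gene of the septum, read 9.13, 10.28, 10.52 and 13.06, and 8.49, 8.97, 10.12 and 11.33. In heterozygous mice replicate 4 was the highest for both genes, whereas the members read higher in replicate 3. The part of thalamic or septal tissue in the members' contrast between arrays was not tested.

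Cortical genes were 1.85 above their mean in wildtype replicate 1, the sample with the lowest Ttr, and within 0.70 of it elsewhere. Wildtype replicate 4, with the highest Ttr, read 1.85 for thalamic and septal genes, 2.08 for blood genes and -0.92 for striatal projection neuron genes. Heterozygous replicate 3, whose Ttr was nearly as high, read -0.27, -0.29 and 0.14 for these list medians. The thalamic and septal median was 0.23 in wildtype replicate 3 and 0.47 in heterozygous replicate 4. Myelinating oligodendrocyte genes, a list that matters for Enpp2 and Trf, ran from -0.24 in wildtype replicate 2 to 0.48 in heterozygous replicate 4, with a median r with Ttr of 0.70. The list median was between -0.12 and 0.35 for astrocytes and between -0.14 and 0.19 for endothelium and pericytes. Single genes varied more, with spans of 2.72 for the astrocyte filament gene Gfap (r = 0.82) and 1.20 for the endothelial gene Ly6c1 (r = 0.94). The summed level of the striatal list lay between 17.47 and 18.89 log2 units in all samples and that of the ependymal list between 12.10 and 13.98. The part of these other tissues in the members' levels was not tested.

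**Figure D5:**
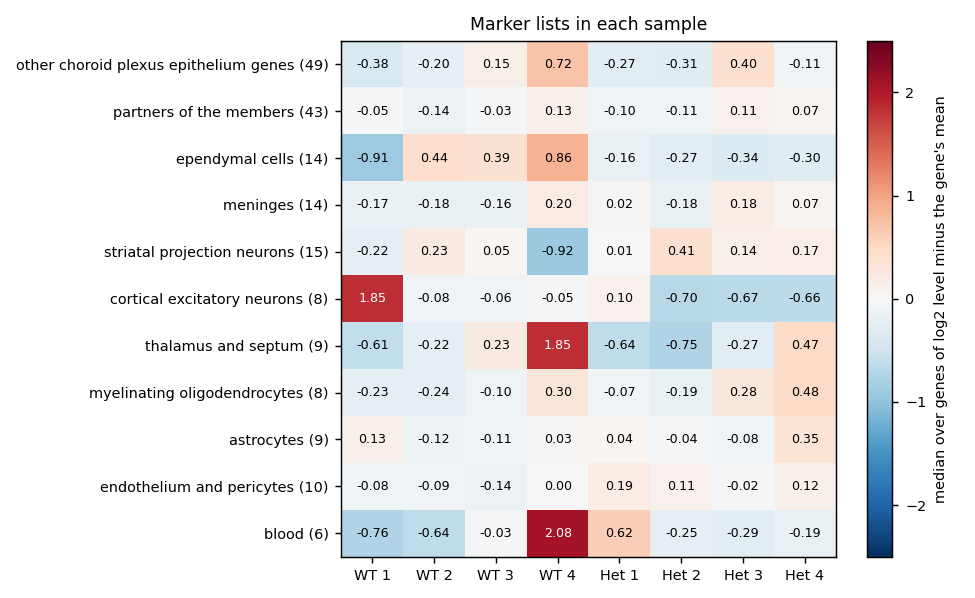
Median over the tested genes of each marker list (rows, number of genes in brackets) of the log2 level minus the gene's mean, in each sample (columns, WT wildtype and Het heterozygous). Other choroid plexus genes are highest in WT 4 (0.72) and Het 3 (0.40), whereas cortical genes mark WT 1 (1.85) and blood genes WT 4 (2.08).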

How the data were processed

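Raw spot and local background intensities were deposited by the authors as scanner files, made with Agilent Feature Extraction 11.0.1.1 per the file headers. The value table deposited by the authors holds a linear ratio: median signal minus median background over the column median, equal within 0.1% of each value for 100% of values, with no centring between samples. No header or label states its scaling, which was worked out from the values. RNA was amplified and labelled per the labels' protocols. Here, log2 values came from the deposited intensities after normexp (offset 50), loess within arrays and Aquantile between arrays (limma 3.58.1, R 4.3.3). Loess and Aquantile align the dyes and arrays over all probes, so levels are relative. Outlier and control spots were left out. Probes well above background in at least 4 of 8 samples were kept (22288), and those with 8 values were tested (18399), while 3889 were left out for outlier spots. limma's lmFit and eBayes used dye as a covariate and array as a random block (correlation 0.81), with Benjamini-Hochberg adjustment at 0.05. The fit was run on simulated data to see that it returned planted differences. That run does not bear on the number of probes called. The number of arrays (4) limits precision. The mice are separate animals, but genotype varied only between arrays.

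Every member probe was read separately and each gene of another list by its brightest tested probe. The rule for naming genes covered the members, Brd2, the 10 genes most like Ttr, the 8 largest differences and 8 highest means in the choroid plexus and partner lists and the 2 highest means in each cell type list. Not every gene that this rule covers is named in the text. The values of 1 list gene are not reported here. Genes named for their array difference, their probe disagreement or by subgroup were chosen after their values were seen. Members and lists were chosen with earlier results of these data known. Coordinates of probes are those of the files (mm9), and promoters and updated names came from RefSeq (GRCm38.p6). Alternatives covered background correction, normalization, filters, outlier spots, the block, the dye, each sample and each array.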

Additional observations from a re-analysis of the deposited data

How the results depend on the processing

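No member probe was called under any of the 26 alternatives. Over all probes, limma called 529 with no array block, 22, 14 and 5 (E2f7, Col4a4 and unnamed transcripts) without the arrays of wildtype replicates 1 and 2, wildtype replicates 3 and 4 and heterozygous replicates 3 and 4, and 1 probe, Olfr1349, both with the value table and without wildtype replicate 4. Leaving out 1 mouse gave 0 to 1 calls. The count of member probes lower in heterozygous samples (6 of 11) was 1 with probes well above background in all 8 samples (fewer probes), 1 within Cy3, 11 within Cy5, 11 without the array of wildtype replicates 1 and 2, 2 without that of wildtype replicates 3 and 4, 11 without that of heterozygous replicates 3 and 4, and 4 to 10 without single mice. The Ttr difference was -2.20 and 5.81 without the respective wildtype arrays. The crossed signs within arrays fell to 5 with the value table. The median member difference ran from -1.33 to 0.93 and turned sign in 6 of 26 alternatives, and the median r with Ttr from 0.71 to 0.95. With the replicate number as a replicate block 0 probes were called. Same-numbered mice correlated at -0.04, 0.18, 0.08 and 0.06 over all tested probes. Among all pairs of a wildtype and a heterozygous mouse, wildtype replicate 4 gave the highest value with heterozygous replicate 3 (0.27). It gave the lowest with heterozygous replicate 2 (-0.28). Mice of the same number share a dye, and whether they share anything else was not tested. The scanner's processed signals moved the median of all probes from -0.02 to -0.06. Depth limits the dim members: Aqp1, Kcnj13 and one Folr1 probe were at background in up to 4 samples.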

Other observations

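Among the 18399 tested probes, 65 shared the members' crossed pattern, at least 1.5-fold higher in wildtype replicate 4 than 3 and at least 1.5-fold higher in heterozygous replicate 3 than 4. They were chosen after their values were seen, so the counts describe them only. Of these, 10 were member probes and 21 were probes of 17 other genes on the choroid plexus list. By the names on the array 0 were on the ependymal list, of whose 20 symbols 15 were found on the array. However, Mia, a gene of that list that the array names Mia1 and that was therefore not matched, was among the 65, at 0.98 and 0.62. The dynein genes Dnah2 (Dnahc2 on the array), at 0.87 and 0.82, and Dnahc7b, at 0.77 and 0.74, were also among the 65 and on neither list. Outside the members the widest was Ecrg4 (1500015O10Rik on the array), which encodes a secreted peptide precursor, at 1.58 in the wildtype pair and 2.37 in the heterozygous pair (log2). Kcne2 was next outside the members, at 1.48 and 2.09. Genes on neither list included Tuba1c, a tubulin with r = 0.96 and 0.97 with Ttr in its probes, Wdr86 at 0.79 and 1.67, Ccl19, a chemokine, at 0.59 and 1.57, and Cdkn1c, a cell cycle inhibitor, at 0.84 and 0.63. Igf2, which choroid plexus and meninges both make, differed by 0.92 and 0.84.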
